A study of Homo sapiens with 19 samples.

Results

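Inhibitory receptors and phosphatases of B cells were followed in lymphoma cells that carried hairpins against the zinc finger factor EGR1, whose gene is switched on within minutes of antigen receptor signals. The group holds 10 named genes of the 25266 gene symbols that the 3 expression tables share. They were chosen by name, with earlier results of these data known. They are the phosphatases PTPN6, INPP5D and PTPN22, the surface receptors CD22, CD72, FCGR2B, LAIR1, LILRB1 and PECAM1, and the surface glycoprotein CD5. All 10 have a row in every table. The RNA came from OCI-LY10, TMD8 and SUDHL2, established human cell lines labelled ABC DLBCL, the activated B-cell-like class of the most common aggressive B-cell lymphoma. In each line, cells transduced with a control hairpin (shsc4), with shEGR1#8 or with shEGR1#9 all received doxycycline (20 ng/ml, 2 days), so the controls carried an induced hairpin too. OCI-LY10 has 3 libraries per group, and the TMD8 and SUDHL2 tables have 1 library per group. Whether the 3 libraries of a group were grown separately is not in the labels, so each p-value refers to the spread among these libraries, part or all of which may be technical. Whether cells were cloned after transduction is not stated in the labels.

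A B-cell receptor that binds antigen is phosphorylated on its CD79A and CD79B chains by the kinase LYN, and SYK and BTK carry the signal on. LYN also phosphorylates short tyrosine motifs (ITIMs) in the tails of inhibitory receptors, which then recruit phosphatases. PTPN6 (SHP-1) removes phosphates from proteins, and INPP5D (SHIP1) removes the 5-position phosphate from the lipid that PI3-kinase makes. Together these receptors and enzymes set how strongly a B cell answers antigen.

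EGR1 was not lower in the OCI-LY10 and TMD8 libraries labelled with its hairpins, and was a little lower in those of SUDHL2. In OCI-LY10 it was at 8.57, 9.59 and 12.3 FPKM (fragments scaled to gene length and library size) in the controls. It stood at 10.04, 11.4 and 20.5 FPKM in the libraries labelled shEGR1#8 and at 10.8, 11.8 and 22.7 FPKM in the shEGR1#9 ones. Both labels together gave a log2 difference of 0.42 from control (SE 0.267, limma adjusted p = 0.349). EGR1 stood at 7.31, 10.8 and 9.95 FPKM in the TMD8 control, shEGR1#8 and shEGR1#9 libraries, and at 17.0, 13.7 and 15.4 FPKM in the SUDHL2 ones. The directions given here are therefore those of the libraries as labelled, and in OCI-LY10 and TMD8 they do not follow a measured fall of EGR1 RNA.

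Across genes on the log2 scale, OCI-LY10 libraries correlated at 0.981 to 0.994 with each other, TMD8 libraries at 0.893 to 0.915 among themselves and at 0.867 to 0.930 with SUDHL2 libraries. The libraries with the TMD8 and SUDHL2 labels thus did not separate by label, and their values are given side by side with no claim that they are 2 independent lines. The TMD8 control correlated at 0.800 to 0.812 with OCI-LY10 libraries, and the TMD8 hairpin libraries at 0.729 to 0.740. The TMD8 shEGR1#9 library correlated at 0.930 with the SUDHL2 control and at 0.902 with the TMD8 control. Genes for short RNAs took 36.3% of the summed FPKM in the TMD8 control and up to 63.1% in the TMD8 hairpin libraries, 53.6 to 55.3% in SUDHL2 and 0.474 to 0.617% in OCI-LY10. The tables hold no read totals, so the absolute depth behind each value is unknown. All 8 B-cell markers reached 1 FPKM in every table. The 30 markers of T and NK cells, myeloid cells, platelets and endothelium stayed at or under 0.199 FPKM in OCI-LY10. In TMD8 and in SUDHL2, 1 T or NK marker and 1 myeloid marker passed 1 FPKM: KLRD1 (0.339, 2.19 and 1.01 FPKM in the control, shEGR1#8 and shEGR1#9 libraries) and LYZ (0.995, 2.88 and 1.57) in TMD8, and CD7 (0, 0.156 and 1.28) and LYZ (1.90, 1.16 and 2.63) in SUDHL2. The 12 T and NK markers summed to 1.17, 3.72 and 2.50 FPKM in TMD8 and 1.86, 3.25 and 3.46 FPKM in SUDHL2, higher in the hairpin libraries of both tables. The 10 myeloid markers summed to 1.28, 3.03 and 1.75 FPKM in TMD8 and 2.19, 1.43 and 3.24 FPKM in SUDHL2, and the part of these sums in the differences from control was not tested. In such bulk samples, fewer cells with a transcript and less of it per cell cannot be told apart.

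The sequence before the start sites of PTPN6, INPP5D and LAIR1 is shown because these are the 3 genes of the group whose RNA differed from control in OCI-LY10. RefSeq (GRCh38.p14) start sites were matched for 8 of the 10 genes, with 13 windows of 250 bases. Windows are written 5′ to 3′ on the gene's strand, and capitals mark the ETS-family core AGGAAGT or its reverse complement ACTTCCT. Which start these cells use cannot be read from the tables. The upstream PTPN6 window is chr12:6946327-6946576 (plus strand) and the downstream one chr12:6951106-6951355 (plus strand), the INPP5D window is chr2:233060092-233060341 (plus strand), and the LAIR1 windows are chr19:54370559-54370808 and chr19:54364932-54365181 (both minus strand).
PTPN6 upstream: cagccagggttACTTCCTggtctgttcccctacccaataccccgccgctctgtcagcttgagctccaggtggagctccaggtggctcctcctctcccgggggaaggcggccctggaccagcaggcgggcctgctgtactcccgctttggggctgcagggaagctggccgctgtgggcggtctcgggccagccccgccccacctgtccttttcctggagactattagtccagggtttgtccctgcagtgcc
PTPN6 downstream: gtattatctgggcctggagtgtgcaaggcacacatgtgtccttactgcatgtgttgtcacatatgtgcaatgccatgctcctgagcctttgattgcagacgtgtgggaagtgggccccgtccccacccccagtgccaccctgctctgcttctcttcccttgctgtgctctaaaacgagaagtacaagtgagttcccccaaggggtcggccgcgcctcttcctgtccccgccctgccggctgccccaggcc
INPP5D: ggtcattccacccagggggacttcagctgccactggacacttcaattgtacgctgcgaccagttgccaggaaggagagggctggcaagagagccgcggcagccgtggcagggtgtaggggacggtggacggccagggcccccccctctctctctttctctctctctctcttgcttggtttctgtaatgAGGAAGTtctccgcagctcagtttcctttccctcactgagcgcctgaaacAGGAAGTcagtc
LAIR1 upstream: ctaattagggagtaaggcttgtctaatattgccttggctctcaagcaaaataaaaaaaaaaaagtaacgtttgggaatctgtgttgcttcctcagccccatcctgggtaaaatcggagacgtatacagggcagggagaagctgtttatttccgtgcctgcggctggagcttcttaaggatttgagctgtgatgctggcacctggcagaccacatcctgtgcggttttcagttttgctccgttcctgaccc
LAIR1 downstream: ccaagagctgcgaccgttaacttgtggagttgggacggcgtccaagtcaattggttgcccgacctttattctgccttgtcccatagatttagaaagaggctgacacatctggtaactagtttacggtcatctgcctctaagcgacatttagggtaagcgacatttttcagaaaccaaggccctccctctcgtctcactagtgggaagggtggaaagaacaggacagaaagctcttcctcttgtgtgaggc

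The motif GCGNGGGCG, the site EGR1 is known to bind, was searched on both strands and was found in 0 of the 13 windows, against 8.41% of all 35116 windows of this length. AGGAAGT, picked after the sequences had been seen, lay in the upstream PTPN6 window and at 2 places in the INPP5D window, and 7.01% of all windows hold it. An interferon regulatory factor motif (GAAA, any 2 bases, GAAA on either strand), picked in the same way, lay in 1 window, of FCGR2B, against 3.02% of all windows. The 5 windows printed differ in base composition: G and C make up 66.4% of the upstream and 59.6% of the downstream PTPN6 window, 59.2% of that of INPP5D, and 47.6 and 49.6% of the LAIR1 windows. A match is a stretch of letters, and no binding was measured here.

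In OCI-LY10, 3 of the 8 genes that could be tested rose in the libraries labelled with EGR1 hairpins, and none fell. They were LAIR1, PTPN6 and INPP5D, while CD22, CD72, FCGR2B, PTPN22 and PECAM1 did not pass the test. The test was limma on log2(FPKM + 1) with Benjamini-Hochberg adjustment over 10612 genes, with calls made at an adjusted p below 0.05. Over all genes tested, 5.84% rose and 2.71% fell (8.56% called in all). Since the group was chosen with earlier results of these data known, its count beside these shares is only a description. CD5 and LILRB1 did not reach 1 FPKM in any OCI-LY10 library and were not tested. The median log2 difference was 0.10 over the 8 genes and 0.03 over all genes tested. The log2(FPKM + 1) scale understates the change of low genes.

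**Figure D1:**
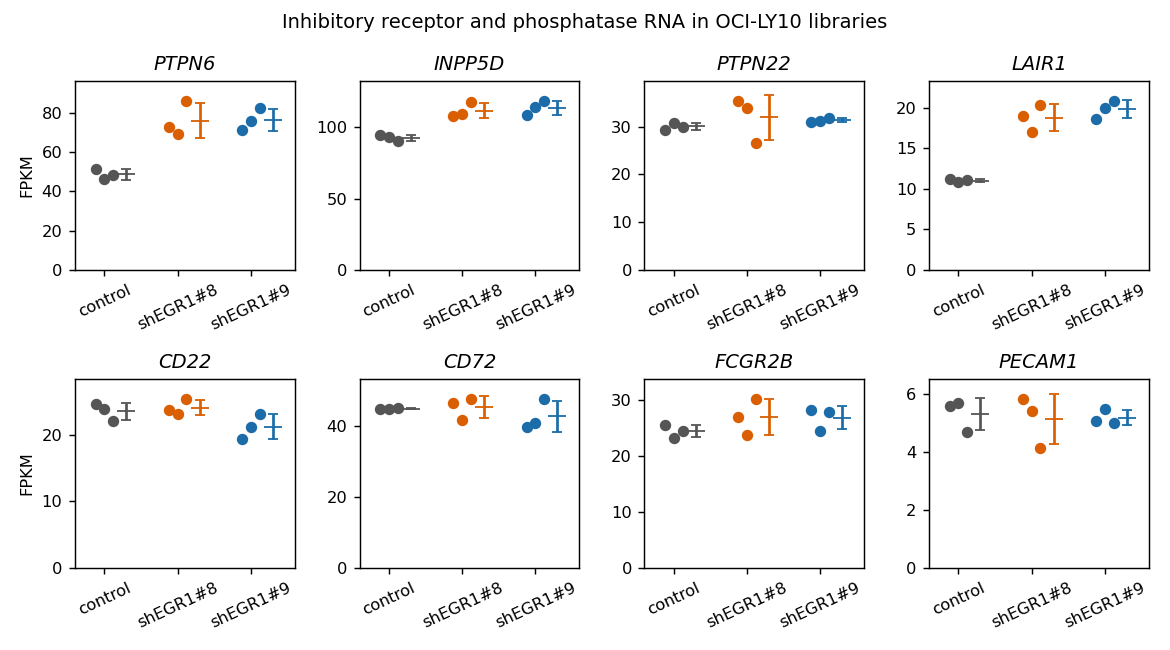
FPKM (vertical axis, from 0) of 8 genes in the 9 OCI-LY10 libraries by group (horizontal axis); points are libraries and the bar beside them is the mean ± SD (n = 3). For PTPN6, INPP5D and LAIR1 all 6 hairpin libraries lie above all 3 controls, and for the other 5 genes the hairpin libraries as a whole overlap the controls.

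PTPN6 encodes SHP-1, the tyrosine phosphatase that ITIM-bearing receptors recruit. It was at 51.5, 46.0 and 48.4 FPKM in the controls, at 72.8, 69.3 and 85.7 FPKM with shEGR1#8, and at 70.9, 75.7 and 82.2 FPKM with shEGR1#9. The groups did not overlap: the lowest hairpin library stood well above the highest control. All 6 hairpin libraries above all 3 controls was seen for 12.9% of genes tested, and all 6 below for 8.22%. Means were 48.6 ± 2.75 FPKM in controls, 75.9 ± 8.67 with shEGR1#8 and 76.3 ± 5.67 with shEGR1#9 (SD, n = 3 libraries each). Both labels together differed from control by 0.63 log2 units (SE 0.079, 95% interval 0.45 to 0.81, limma adjusted p = 0.00242), which ranked 94 among the 620 genes that rose.

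INPP5D encodes SHIP1, the lipid phosphatase that FCGR2B recruits. It was at 94.5, 92.9 and 90.1 FPKM in the controls, at 108, 109 and 117 FPKM with shEGR1#8, and at 109, 114 and 118 FPKM with shEGR1#9. The hairpin libraries again lay above every control, by a smaller margin than for PTPN6. The log2 difference was 0.28 (SE 0.050, 95% interval 0.17 to 0.39, limma adjusted p = 0.0113), and it ranked 509 of 620. This call was lost without control replicate 2 (adjusted p = 0.0562), without control replicate 3 (adjusted p = 0.0736) and without the 3 libraries numbered 3 (adjusted p = 0.0636), with log2 differences of 0.28, 0.26 and 0.23.

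PTPN22, the tyrosine phosphatase that works with CSK to restrain SRC-family kinases, was at 29.3, 30.8 and 29.97 FPKM in the controls, 35.3, 33.8 and 26.6 FPKM with shEGR1#8, and 31.0, 31.2 and 31.8 FPKM with shEGR1#9. The shEGR1#8 libraries spanned the controls, with replicate 3 below all of them and the other 2 above. The log2 difference was 0.07 (95% interval −0.12 to 0.25, limma adjusted p = 0.631). For shEGR1#8 alone it was 0.08 (adjusted p = 0.659). It became 0.20 with an adjusted p of 0.0491 without shEGR1#8 replicate 3, the library with the lowest array weight (0.170). Without shEGR1#8 replicate 1 it became −0.00046 (adjusted p = 0.998). PTPN22 gained a call under 1 of the 20 alternatives for this label.

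LAIR1, an ITIM receptor for collagen, was at 11.2, 10.8 and 11.1 FPKM in the controls, at 19.0, 17.0 and 20.3 FPKM with shEGR1#8, and at 18.7, 20.0 and 20.8 FPKM with shEGR1#9. Its controls lay close together and its groups did not overlap. Means were 11.02 ± 0.194, 18.8 ± 1.66 and 19.8 ± 1.07 FPKM (SD, n = 3 libraries each). The log2 difference was 0.75 (SE 0.063, 95% interval 0.61 to 0.90, limma adjusted p = 0.000398), ranked 54 of 620. LAIR2, a soluble relative of LAIR1, was listed at 0 in all 9 OCI-LY10 libraries. PTPN6 and LAIR1 kept their call under each of the 19 alternative settings run for this contrast (highest adjusted p 0.0193 and 0.00914).

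The other 4 measured receptors did not pass the test in OCI-LY10. CD22, a Siglec that binds sialic acid and recruits SHP-1, was at 24.5, 23.9 and 22.1 FPKM in the controls, 23.7, 23.1 and 25.4 FPKM with shEGR1#8, and 19.3, 21.1 and 23.1 FPKM with shEGR1#9. Its log2 difference was −0.06 (95% interval −0.21 to 0.09, limma adjusted p = 0.622). CD72, the B-cell receptor for SEMA4D, was at 44.8, 44.8 and 45.1 FPKM in the controls, 46.5, 41.8 and 47.7 FPKM with shEGR1#8, and 39.8, 40.8 and 47.6 FPKM with shEGR1#9. The hairpin libraries scattered on both sides of the closely spaced controls, with a log2 difference of −0.03 (95% interval −0.19 to 0.12, limma adjusted p = 0.793).

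FCGR2B, the inhibitory receptor for IgG, was at 25.5, 23.3 and 24.5 FPKM in the controls, 27.0, 23.9 and 30.3 FPKM with shEGR1#8, and 28.2, 24.5 and 27.9 FPKM with shEGR1#9. Here 4 of 6 hairpin libraries exceeded every control and none lay below them, but the log2 difference of 0.13 (95% interval −0.05 to 0.31) did not pass (limma adjusted p = 0.330). PECAM1, an adhesion receptor with ITIMs, was at 5.57, 5.68 and 4.67 FPKM in the controls, 5.82, 5.42 and 4.14 FPKM with shEGR1#8, and 5.05, 5.47 and 4.99 FPKM with shEGR1#9. Its groups overlapped throughout (log2 difference −0.04, 95% interval −0.26 to 0.18, limma adjusted p = 0.827). FCGR2B shares long stretches with FCGR2A and FCGR2C, so its value depends on how reads were divided between them. FCGR2A and FCGR2C were at or under 0.746 and 0.222 FPKM in OCI-LY10.

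CD5, the coreceptor of B-1 and T cells that restrains antigen receptor signals, was listed at 0 in all 9 OCI-LY10 libraries. LILRB1, an ITIM receptor for HLA class I, was listed at 0 in 4 of them and reached at most 0.0609 FPKM. In the OCI-LY10 controls the order of levels ran from INPP5D (mean 92.5 FPKM) through PTPN6 (48.6), CD72 (44.9), PTPN22 (30.02), FCGR2B (24.5), CD22 (23.5) and LAIR1 (11.02) to PECAM1 (5.31). Among these neighbours only the ranges of FCGR2B and CD22 overlapped.

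**Figure D2:**
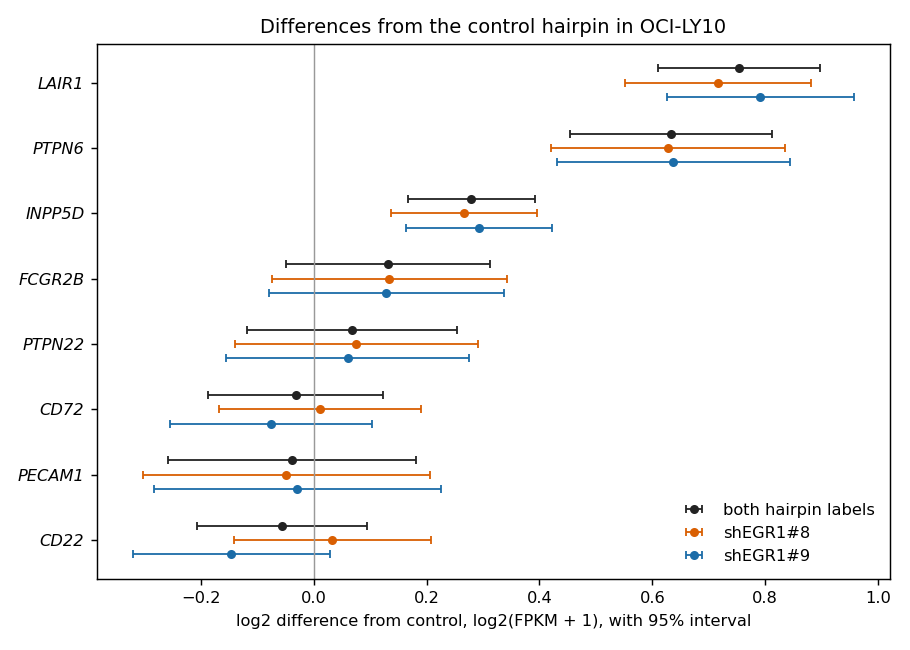
Log2 difference from control on the log2(FPKM + 1) scale (horizontal axis) with its 95% interval for 8 genes in OCI-LY10, for both hairpin labels together and for each alone. The intervals of LAIR1, PTPN6 and INPP5D lie above 0 in all 3 comparisons, and those of the other 5 genes include 0.

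Each hairpin label alone gave the same 3 calls. These 2 comparisons share their controls. Against control, libraries labelled shEGR1#8 differed by 0.63 log2 units for PTPN6 (limma adjusted p = 0.00807), 0.72 for LAIR1 (adjusted p = 0.00154) and 0.27 for INPP5D (adjusted p = 0.0339), where 3.71% of genes rose and 1.62% fell (5.33% called in all). Libraries labelled shEGR1#9 differed by 0.64 for PTPN6 (adjusted p = 0.00650), 0.79 for LAIR1 (adjusted p = 0.000836) and 0.29 for INPP5D (adjusted p = 0.0236), where 3.55% rose and 1.54% fell (5.09% called in all). The INPP5D call of a single label was the least firm. It was lost without any 1 control (adjusted p = 0.101, 0.106 and 0.147 for shEGR1#8 and 0.0809, 0.0915 and 0.114 for shEGR1#9, without replicates 1, 2 and 3). The shEGR1#8 call was also lost without shEGR1#9 replicate 1 (0.0530) or 2 (0.0694), with median-ratio scaling (0.0552), with only the 2 groups compared in the fit (0.107) and without the 3 libraries numbered 3 (0.133). The shEGR1#9 call was lost without shEGR1#9 replicate 1 (0.0511), 2 (0.105) or 3 (0.107) and without the 3 libraries numbered 3 (0.0969).

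Set directly against each other, the hairpin labels gave no call for any of the 8 genes. Nor did any other gene pass in that contrast (0.00% of genes by limma, 267 of 10612 at an unadjusted p under 0.05). The intervals of shEGR1#9 minus shEGR1#8 were −0.20 to 0.22 for PTPN6, −0.10 to 0.16 for INPP5D and −0.09 to 0.24 for LAIR1. CD22 was the only one of the 8 with an unadjusted p below 0.05. Its log2 difference was −0.18 (95% interval −0.35 to −0.0039, limma adjusted p = 1.00), and 2 of the 3 shEGR1#9 libraries lay under all shEGR1#8 libraries.

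For each gene that rose, the 3 genes with the most similar pattern over the 9 libraries were listed by Pearson correlation on the log2 scale. The 9 points fall in 3 groups, and the difference between groups enters each correlation. For PTPN6 they were the chemokine receptor CCR7 (0.994), the class II invariant chain CD74 (0.994) and the lysosomal phosphatase ACP2 (0.993). For INPP5D they were SYNGR2 (0.991), the kinase PTK2B (0.989) and the TNF-family ligand CD70 (0.989). For LAIR1 they were the ISG15 protease USP18 (0.994), FXYD5 (0.992) and the shared cytokine receptor chain IL2RG (0.990). The 8 B-cell markers differed among themselves. Their summed FPKM was 2952 to 3246 in controls, 3614 to 4334 with shEGR1#8 and 3734 to 4090 with shEGR1#9. Of the 8 markers 2 rose, CD74 by 0.84 and CD79A by 0.65 log2 units, against 5.84% of all genes tested. MS4A1 averaged 323 FPKM in controls and 272 over both hairpin labels, with all 6 hairpin libraries below all controls (limma adjusted p = 0.110), and CD37 averaged 366 and 333 (adjusted p = 0.325). The part of these markers in the result was not tested. Markers of T and NK cells summed to at most 0.366 FPKM in any OCI-LY10 library.

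Of 20 other ITIM receptors, 8 could be tested in OCI-LY10, of which 4 rose and 2 fell (median log2 difference 0.24). Over all genes tested, 5.84% rose and 2.71% fell (median 0.03). This list and the other lists below were also chosen with earlier results of these data known, so their counts are descriptions. LILRB4, a myeloid and plasma cell receptor, rose from a mean of 4.94 FPKM in controls to 11.7 over both hairpin labels (log2 difference 1.10, SE 0.079, limma adjusted p = 0.000182). PDCD1 (PD-1) rose by 0.87 (adjusted p = 0.0115), a call lost without control replicate 3 (adjusted p = 0.0649). The Fc receptor-like FCRL3 and FCRL2 fell by 0.36 and 0.35 log2 units (adjusted p = 0.0105 and 0.0392). FCRL3 lost its call without control replicate 1 (adjusted p = 0.0556) or 2 (adjusted p = 0.0597). FCRL2 lost it without any 1 of the controls (adjusted p = 0.0856, 0.160 and 0.107) or of the shEGR1#9 libraries (adjusted p = 0.0728, 0.0686 and 0.0874). BTLA and SIRPA rose by 0.39 and 0.36 (adjusted p = 0.0107 and 0.0326) and lost their calls without any 1 of the controls (adjusted p 0.0517 to 0.0602 and 0.102 to 0.124), and SIRPA also without shEGR1#9 replicate 2 (0.0682) or 3 (0.0711), with no filter (0.0606) and with quantile normalization (0.0733). FCRL2 also lost its call with no filter (0.0704). Without the 3 libraries numbered 3, FCRL2, FCRL3, BTLA and SIRPA all lost theirs (adjusted p = 0.136, 0.0523, 0.0561 and 0.153).

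Of 25 other phosphatases and adaptors of inhibitory signalling, 22 were tested, 2 rose and none fell (median 0.10). The shares over all genes tested were 5.84% and 2.71%. They were PTPN7, a phosphatase of MAP kinases, at 0.53 (limma adjusted p = 0.00585), and the receptor phosphatase PTPRJ at 0.23 (adjusted p = 0.0196). The PTPRJ call was lost without any 1 control (adjusted p = 0.0638, 0.0915 and 0.118), without shEGR1#9 replicate 3 (adjusted p = 0.0531), with quantile normalization (0.0597) and without the 3 libraries numbered 3 (0.106).

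On the activating side, 20 of 21 genes were tested, 4 rose and 2 fell (median 0.02), against 5.84% and 2.71% of all genes tested. CD79A, the signalling chain of the receptor, was at 0.65 (limma adjusted p = 0.00926) and lost its call without control replicate 2 (adjusted p = 0.0527) or 3 (adjusted p = 0.0549) and without the 3 libraries numbered 3 (adjusted p = 0.0600). LYN, the kinase that phosphorylates both CD79A and ITIMs, rose by 0.28 (adjusted p = 0.00582). FYN, a related kinase, fell by 0.62 log2 units (adjusted p = 0.00107) from a mean of 4.92 to 2.86 FPKM. PIK3AP1, an adaptor for PI3-kinase, rose by 0.25 (adjusted p = 0.0238), a call lost without any 1 control or any 1 shEGR1#9 library (adjusted p 0.0535 to 0.107). The other called genes were the adaptor BLNK, which rose by 0.19 (adjusted p = 0.0477), and the PI3-kinase subunit PIK3R1, which fell by 0.24 log2 units (adjusted p = 0.0342). Both lost their calls without any 1 control (adjusted p 0.132 to 0.193 for BLNK and 0.0930 to 0.152 for PIK3R1) or any 1 shEGR1#9 library (0.0622 to 0.102 and 0.0634 to 0.0809), and BLNK also without shEGR1#8 replicate 1 (0.0621), with median-ratio scaling (0.0764), with quantile normalization (0.0530) and with no mean-variance trend (0.0603). PIK3R1 also lost it with no filter (0.0537), and without the 3 libraries numbered 3 both did (0.147 and 0.122).

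Among 15 genes for ligands and the enzymes that make them, 7 were tested, where 5.84% of all genes tested rose. HLA-B alone rose, by 0.66 (limma adjusted p = 0.0225). Its call was lost without control replicate 2 (adjusted p = 0.0524), control replicate 3 (adjusted p = 0.0521) or shEGR1#9 replicate 2 (adjusted p = 0.0548), and HLA genes have near-identical copies, so the value is uncertain. Of 12 paralogs of the group, 1 could be tested: LILRA4, a receptor of plasmacytoid dendritic cells, was at 84.9 FPKM in controls and 144 over both hairpin labels, a rise of 0.75 (limma adjusted p = 0.00122). The call of LILRA4 was not followed under the alternative settings.

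**Figure D3:**
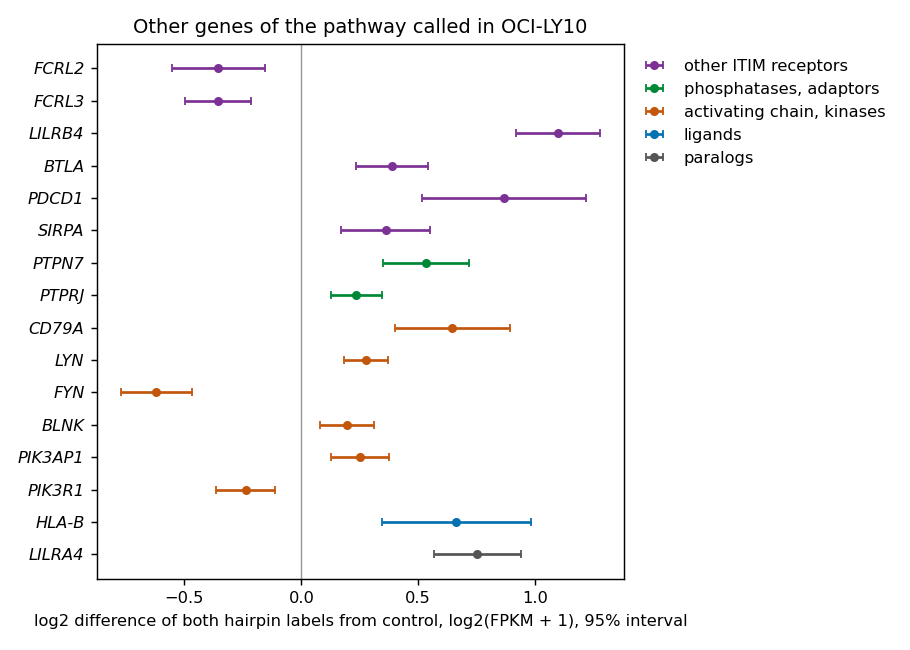
Difference from control (horizontal axis, log2(FPKM + 1) scale, both hairpin labels together) with its 95% interval for the 16 called genes of the other lists in OCI-LY10, coloured by list. Of these 16 genes 12 lie above 0 and 4 (FCRL2, FCRL3, FYN and PIK3R1) below.

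The TMD8 and SUDHL2 tables have 1 library per group, so no error or test can be given, and a difference compares single libraries. Every TMD8 difference rests on 1 control. That control correlated less with the TMD8 hairpin libraries (0.893 and 0.902) than these did with each other (0.915). Hairpin libraries were rescaled by their median ratio to the control (0.904 and 0.971 in TMD8, 1.00 in both SUDHL2 hairpin libraries), and a gene was counted when both hairpin libraries were over 1.5-fold from control in the same direction. Among 9 genes of the group at 1 FPKM or more in TMD8, 2 were over the fold on the higher side, LILRB1 and LAIR1, and none on the lower side. LAIR1 reached 1 FPKM in the hairpin libraries but not in the control, so the minimum itself favoured its count as higher, and LILRB1 alone was over the fold when all 3 libraries had to reach 1 FPKM. The background was 8.44% of 11807 genes higher and 11.4% lower. In SUDHL2 1 of 9 was over the fold, LILRB1, again higher, against 3.79% of 11631 genes higher and 2.18% lower.

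**Figure D4:**
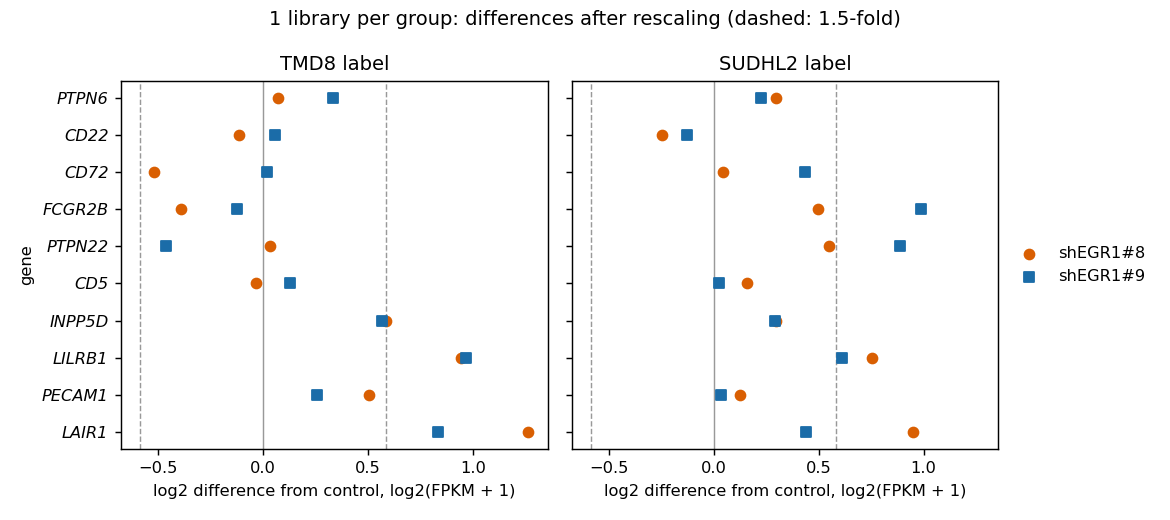
Log2 difference from the control library on the log2(FPKM + 1) scale after rescaling (horizontal axis) for the 10 genes, 1 point per hairpin library, in the TMD8 table (left) and the SUDHL2 table (right); dashed lines mark 1.5-fold. LILRB1 lies past the line with both hairpins in both tables, and FCGR2B lies left of 0 in TMD8 and right of 0 in SUDHL2.

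LILRB1 was high in these tables, unlike in OCI-LY10. It was at 20.5 FPKM in the TMD8 control, 36.4 with shEGR1#8 and 39.8 with shEGR1#9, and at 78.8, 134 and 121 FPKM in SUDHL2. The rescaled log2 differences were 0.94 and 0.96 in TMD8 and 0.75 and 0.61 in SUDHL2. LILRB1 has many near-identical relatives in the LILR cluster, so reads may be shared among them. LILRA1, one of these relatives, was at 4.20, 9.78 and 8.44 FPKM in TMD8 and 9.86, 29.8 and 26.4 FPKM in SUDHL2.

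LAIR1 was low in both tables: 0.206, 1.71 and 1.11 FPKM in the TMD8 control, shEGR1#8 and shEGR1#9 libraries and 1.34, 3.54 and 2.19 FPKM in SUDHL2. Its log2 differences were 1.26 and 0.83 in TMD8 and 0.95 and 0.44 in SUDHL2. The TMD8 value depended on the pseudocount: averaged over both hairpins it was 1.05 with 1 and 2.37 with 0.1. How many reads stand behind the low TMD8 control value is unknown. Its relative LAIR2 was at 0.545, 0 and 0.837 FPKM in TMD8 and 3.29, 2.64 and 5.40 FPKM in SUDHL2. Whether reads were shared between LAIR1 and LAIR2 was not tested.

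PTPN6 was the highest gene of the group in both tables. In TMD8 it was at 180, 171 and 220 FPKM in the control, shEGR1#8 and shEGR1#9 libraries, and in SUDHL2 at 241, 297 and 283 FPKM. The rescaled log2 differences were 0.07 and 0.34 in TMD8 and 0.30 and 0.23 in SUDHL2. The shEGR1#8 library of TMD8 lay below control as deposited (−0.08) and above it only after rescaling. INPP5D was at 17.7, 24.4 and 25.9 FPKM in TMD8 and 23.2, 28.8 and 28.8 FPKM in SUDHL2, with rescaled differences of 0.59 and 0.57 and of 0.30 and 0.29. PTPN22 was at 4.25, 3.94 and 2.73 FPKM in TMD8 and 0.809, 1.65 and 2.36 FPKM in SUDHL2, with rescaled differences of 0.03 and −0.46 and of 0.55 and 0.89.

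CD22 was at 52.7, 43.9 and 53.2 FPKM in TMD8 and 62.6, 52.8 and 57.4 FPKM in SUDHL2, below control in 3 of the 4 hairpin libraries after rescaling. CD72 was at 18.0, 11.1 and 17.7 FPKM in TMD8 and 9.94, 10.3 and 13.9 FPKM in SUDHL2. FCGR2B was at 7.50, 4.94 and 6.59 FPKM in TMD8 and at 4.40, 6.64 and 9.75 FPKM in SUDHL2, lower with both hairpins in the first table and higher with both in the second. How many of all genes differed in direction in this way was not counted. CD5 was at 11.1, 9.78 and 11.9 FPKM in TMD8 and 8.32, 9.43 and 8.52 FPKM in SUDHL2. PECAM1 stayed under 1 FPKM in all 6 libraries, at most 0.508 in TMD8 and 0.238 in SUDHL2.

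**Figure D5:**
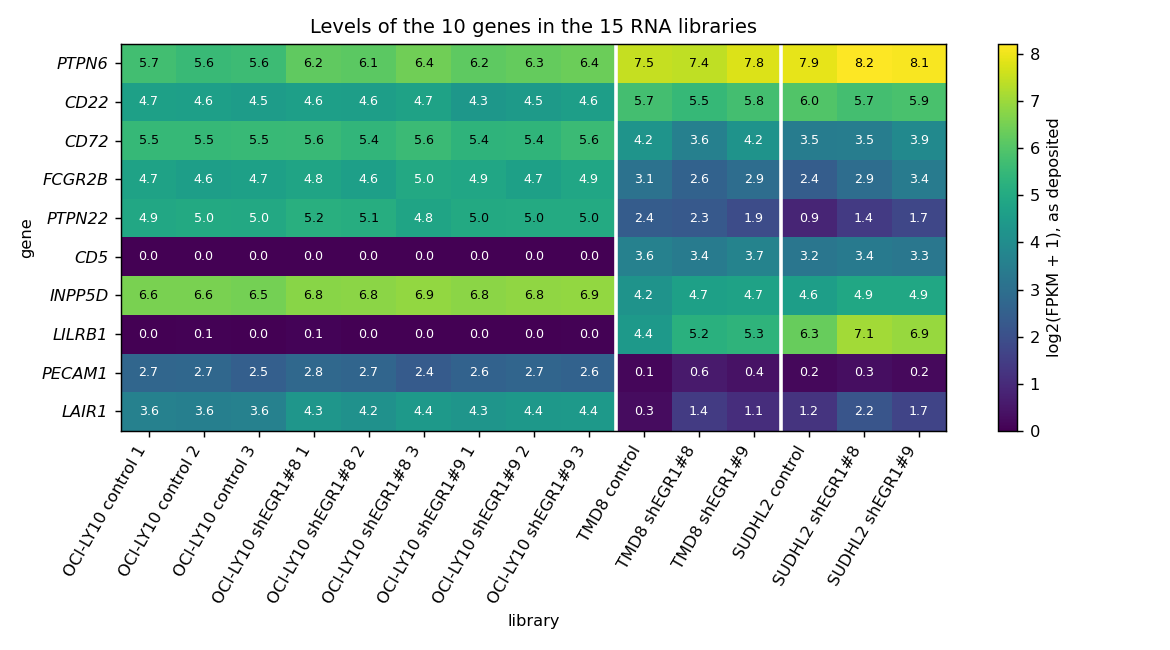
Level of the 10 genes (rows) in the 15 RNA libraries (columns) as log2(FPKM + 1) of the deposited values, by colour and printed value; white lines divide the 3 tables. CD5 and LILRB1 are at or near 0 in OCI-LY10 and measured in the other tables, and PECAM1 is measured in OCI-LY10 and near 0 in the others.

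Of the 10 genes, 7 passed the minimum in all 3 tables, and 3 of these, PTPN6, INPP5D and LAIR1, were above every control of their table in all 10 hairpin libraries after the rescaling of TMD8 and SUDHL2. The same held for 6.43% of the 9597 genes over the minimum in all 3 tables. LAIR1 passed the minimum in TMD8 only through its hairpin libraries, which favoured its count here. LILRB1 was above control in all 4 hairpin libraries of the 2 tables in which it passed the minimum. The hairpin libraries of each of these tables share its control. The share of all genes with this pattern was not counted, and the 6.43% for all 10 hairpin libraries is not its background. The 4 hairpin libraries of TMD8 and SUDHL2 are not replicates of a condition in OCI-LY10. Levels set across tables are descriptions, since the tables may have been normalized separately. Summed B-cell markers were 1684, 1363 and 1867 FPKM in the TMD8 control, shEGR1#8 and shEGR1#9 libraries and 1505, 1534 and 1580 FPKM in SUDHL2, and their part in these differences was not tested.

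The other ITIM receptors, a list chosen with earlier results of these data known, were counted in the same way. In TMD8 5 of 11 were over the fold on the higher side and none on the lower, and in SUDHL2 5 of 12 and none. Of all genes over the minimum, 8.44% were higher and 11.4% lower in TMD8, and 3.79% higher and 2.18% lower in SUDHL2. The same shares apply to the other lists counted here. SIGLEC5 in TMD8 (0.363, 1.05 and 1.29 FPKM) and CEACAM1 in SUDHL2 (0.799, 2.70 and 4.95 FPKM) passed the minimum only through their hairpin libraries, which favoured their count as higher. LILRB4, which rose in OCI-LY10, was at 30.9, 49.7 and 51.6 FPKM in TMD8 and 69.5, 142 and 156 FPKM in SUDHL2. PDCD1 was at 10.4, 23.1 and 19.9 FPKM in TMD8 and 8.90, 26.1 and 24.9 FPKM in SUDHL2. Of the other phosphatases and adaptors, 4 of 22 were over the fold higher in TMD8 and 1 of 22 in SUDHL2, and on the activating side 1 of 19 was higher and 1 lower in TMD8 and none of 19 in SUDHL2.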

How the data were processed

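RNA-seq values of 15 libraries were used; the 4 chromatin samples of the series were not analysed here. The authors deposited 1 table per cell line with 1 value per gene and library, read here as FPKM from the values, since neither the labels nor the headers name the unit. The submitters' processing notes name StringTie, HISAT, Bowtie2 and hg19, without roles or versions. Libraries were TruSeq RNA, per the labels' protocols. Repeated gene names (4, 9 and 10 lines), 1 line in the TMD8 table that was not numeric and 430 lines of the TMD8 table appended to the SUDHL2 table were left out.

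OCI-LY10 genes with at least 1 FPKM in at least 3 of 9 libraries were tested as log2(FPKM + 1) in limma 3.58.1 (R 4.3.3) with a trend, 1 mean per group, Benjamini-Hochberg adjustment and a threshold of 0.05. On simulated data of this design, 76 of 100 genes changed by 0.5 and 98 of 100 changed by 1 log2 unit were recovered. The changed genes were drawn only from those with higher control levels, which leaves out PECAM1. Noise was drawn independently for each value. These shares therefore do not extend to genes of lower level. Changes under 0.5 log2 units, such as that of INPP5D, were not simulated. The shares describe recovery and do not give the number of false calls. TMD8 and SUDHL2 were compared without a test. Genes under 0.08 FPKM stood in whole-number ratios between libraries (within 0.01 log2 units, up to 4) for 23.0 to 35.8% of genes in OCI-LY10 pairs, 81.0 to 88.2% in SUDHL2 and 86.7% between the TMD8 hairpin libraries, but 10.4 and 8.33% between the TMD8 control and these (at most 3.76% at a median factor). Values of the SUDHL2 hairpin libraries stood 0.58 and 0.60 log2 units above control in these ratios, up to a ratio of small whole numbers. The relative depth of the TMD8 control was not settled, and no read count could be read. Sequences are RefSeq's (GRCh38.p14). Figures used Python 3.11.15 with matplotlib 3.10.9.

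All 10 genes were named; from other lists, called genes in the contrast of both hairpins, at most the 4 largest per list; and for each called gene of the 10 the 3 most correlated genes. FCRL2, FCRL3, BLNK, PIK3R1, LAIR2, FCGR2A, FCGR2C, LILRA1, SIGLEC5, CEACAM1 and single markers were named after their values were seen. Same-number libraries of shEGR1#8 and shEGR1#9 correlated at 0.17, 0.13 and 0.26 in their deviations from group means. Among pairs of different number, 4 of 18 were also over 0.1. Pairing by number was therefore not settled, and it was used only as an alternative. The genes and lists were chosen with earlier results of these data known. Alternatives covered the pseudocount, filter, scaling, trend, weights, replicate block and left-out libraries.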

Additional observations from a re-analysis of the deposited data

Results flagged for a closer look

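FCGR2B moved in opposite directions in the tables labelled TMD8 and SUDHL2. After rescaling, its log2 difference from control was -0.39 with shEGR1#8 and -0.13 with shEGR1#9 in TMD8, and 0.50 and 0.99 in SUDHL2. Each table has 1 library per group, so the difference between them was not tested. Both differences of a table share its control library, so their common direction is partly built in. FCGR2B was not counted as over the fold in either table. The share of all genes with such opposite directions was not computed, so how common this pattern is remains unknown. In OCI-LY10, where the test could be made, FCGR2B did not pass (log2 difference 0.13, limma adjusted p = 0.330). Its relatives FCGR2A and FCGR2C were at most 0.152 and 0.296 FPKM in any TMD8 or SUDHL2 library. EGR1, the gene the hairpins are directed at, also differed in direction: 0.64 and 0.44 in TMD8 against -0.29 and -0.14 in SUDHL2 (log2, shEGR1#8 and shEGR1#9, after rescaling), a difference that was likewise not tested.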

How the results depend on the processing

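For both hairpin labels against control, PTPN6, LAIR1, LILRB4, PTPN7, LYN and FYN passed under every alternative that gave them a value, and 2 or 3 of the 8 tested genes of the group rose under each. Of 1006 recomputed values, 865 were classed as the same. For OCI-LY10 genes this meant the same direction and side of the threshold. For TMD8 and SUDHL2 genes it meant the same side of the fold, and for counts a change of at most 1.5-fold. The 1006 values are not all that could be recomputed. For single labels and for hairpin 9 against hairpin 8 they cover counts and only the genes PTPN6, INPP5D and LAIR1, with PTPN22 for shEGR1#8 and CD22 between the hairpins. Genes that were not called and stayed so are among the 865. The number of genes called moved more. It was 908 for both labels, 1914 with array weights, 368 without the 3 libraries numbered 3, and 281 to 1318 when 1 library was left out (313, 313 and 281 without control replicates 1, 2 and 3; 535 and 538 without shEGR1#9 replicates 2 and 3). For shEGR1#8 the 566 genes became 150 without the libraries numbered 3, 127 with only the 2 groups compared in the fit, and 133 to 699 with 1 library left out (135, 159 and 133 without control replicates 1, 2 and 3; 341 and 268 without shEGR1#9 replicates 1 and 2). For shEGR1#9 the 540 became 1950 with array weights, 187 without the libraries numbered 3, 1153 with only the 2 groups compared, and 143 to 1153 with 1 left out (166, 191 and 143 without control replicates 1, 2 and 3; 223, 149 and 171 without shEGR1#9 replicates 1, 2 and 3; 1153 without shEGR1#8 replicate 3). Hairpin 9 against hairpin 8 gave 0 genes, 1 with no filter, 1 without the libraries numbered 3, and 0 to 9 with 1 left out. In TMD8 the 2339 genes over 1.5-fold became 760 at 2-fold, and the 2 genes of the group became 3 with a pseudocount of 0.1 (INPP5D added), 1 when 1 FPKM was needed in all 3 libraries and 0 at 2-fold. In SUDHL2 the 695 genes became 1111 with a pseudocount of 0.1, 459 with 1 FPKM in all 3 libraries and 234 at 2-fold. The 1 gene of the group became 3 with a pseudocount of 0.1 (PTPN22 and LAIR1 added) and 0 at 2-fold. PTPN22 reached 1 FPKM there only in its hairpin libraries, which favoured its count as higher. The cause of the changed counts was not tested.

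Same-number libraries of different groups correlated at -0.19 to 0.26 in their deviations from the group means. The 3 of 9 pairs over 0.1 were those of shEGR1#8 with shEGR1#9. Pairs of different number correlated at -0.27 to 0.18, and 4 of 18 were over 0.1. Of 9 libraries, 5 correlated best with their own number. Whether the numbers pair any of the groups was therefore not settled. In shEGR1#9 against shEGR1#8 the replicate block left 0 genes called. With the replicate block 349 genes were called for shEGR1#8 and 351 for shEGR1#9, INPP5D lost its call in each (adjusted p = 0.0615 and 0.0501), and BLNK and PIK3R1 lost theirs for both labels (adjusted p = 0.0656 and 0.0544). Among the genes followed under the alternatives, the block changed no other call. LILRA4 and the markers CD74, MS4A1 and CD37 were not followed under any alternative.

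Signs changed only for values near 0. PECAM1, at -0.04 for both labels, was 0.017 with array weights and -0.11 to 0.022 with 1 library left out. PTPN22, at 0.08 for shEGR1#8, was -0.00046 without shEGR1#8 replicate 1 and 0.20 without replicate 3. In shEGR1#9 minus shEGR1#8, PTPN6 at 0.01 was -0.0065 with quantile normalization and -0.053 to 0.099 with 1 library left out, and INPP5D at 0.03 was -0.0023 to 0.064 with 1 library left out. CD5 in TMD8, averaged over both hairpins, also changed sign, at -0.039 to 0.051 over its 4 alternatives. Read depth is unknown, so what it limits could not be given.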
